A study of Mus musculus with 96 samples.

Results

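Rpl22, which codes for a protein of the large ribosomal subunit, and its paralog Rpl22l1 were followed through 96 RNA-seq libraries of mouse striatum. They were chosen by name, and are 2 of the 15260 genes listed in all 3 deposited tables. The libraries came from mice of 2 Huntington's disease models, each beside its own controls. Q175 mice, in which mouse Htt carries an expanded CAG repeat, were set against WT mice at 2, 6 and 12 months of age, all with the strain label C57BL/6J. R6/2 mice, which carry a transgene with a fragment of human HTT, were set against mice labelled NCAR at 1, 2 and 3 months, all with the strain label CBA x C57BL/6. Each of these 12 genotype and age groups gave 4 libraries of IP RNA, recovered by immunoprecipitation, and 4 libraries of input RNA from the whole tissue. An adeno-associated virus had been injected into the striatum in every group, controls included. The labels used here name neither the cargo of the virus, its promoter, nor the protein that was precipitated.

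RPL22 sits on the surface of the large subunit and is not needed for protein synthesis in mouse cells. RPL22L1 can take its place in the ribosome, and in mice without Rpl22 the paralog is made at higher levels. In ribosome-tagging methods an epitope is fused to RPL22 in a chosen cell type, and the tagged ribosomes are pulled down with their messenger RNA. Where a tagged copy shares the coding sequence of the native gene, a value per gene holds reads of both and cannot separate them.

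In mm10 (GRCm38) coordinates of the GENCODE annotation, Rpl22 lies on the plus strand at chr4:152325742-152334071 and Rpl22l1 on the plus strand at chr3:28805436-28807424. Each is read in 4 coding exons, of 384 coding bases in Rpl22 and 366 in Rpl22l1, stop codon not counted. The coding part of the last exon is shown because it lets the reads of these genes, and of a copy of the paralog, be told apart or not. Capitals in Rpl22 and Rpl22l1 mark the 36 of 142 bases at which they differ from each other, and the capital in Gm15421 marks its only difference from Rpl22l1.
Rpl22: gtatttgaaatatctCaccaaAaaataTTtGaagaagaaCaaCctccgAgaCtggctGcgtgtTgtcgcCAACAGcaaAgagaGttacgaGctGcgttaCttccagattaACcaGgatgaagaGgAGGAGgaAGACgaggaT
Rpl22l1: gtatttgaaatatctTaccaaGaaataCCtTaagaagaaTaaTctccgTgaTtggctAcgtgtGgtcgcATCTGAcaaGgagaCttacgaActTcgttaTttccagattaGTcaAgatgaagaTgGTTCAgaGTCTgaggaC
Gm15421: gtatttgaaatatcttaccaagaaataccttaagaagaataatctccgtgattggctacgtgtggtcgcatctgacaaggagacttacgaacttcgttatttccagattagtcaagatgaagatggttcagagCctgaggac
The stretches lie at chr4:152332280-152332421 and chr3:28807187-28807328 on the plus strand, and at chr5:22528324-22528465 on the minus strand. Gm15421 is annotated as a transcribed processed pseudogene at chr5:22528321-22529244. Over 395 aligned bases its transcript differed from the Rpl22l1 transcript at 2 positions (99.5% identical), whereas the coding sequences of Rpl22 and Rpl22l1 were 74.2% identical over 299 aligned positions. Within that aligned stretch, reads that cover neither of the 2 differences cannot be assigned to Rpl22l1 or to its copy by sequence. How such reads were counted is not given in the sources used here, so Rpl22l1 values are uncertain to that extent. An antisense gene, Gm33051 (chr3:28807205-28813985, minus strand), also overlaps the last exon of Rpl22l1, and whether counting used the strand is not given in the sources used here.

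The IP libraries held 41869636 to 84211827 recovered reads and the input libraries 27120406 to 51189687. Rpl22 took 0.0248% to 0.43% of the reads in IP and 0.0127% to 0.0564% in input. Rpl22 was covered by 13366 to 225022 reads in IP and 3538 to 23373 in input, and Rpl22l1 by only 29 to 310 reads in IP and 103 to 1192 in input. Whether the 4 libraries in each group stem from different mice is not given in the labels, and p-values therefore measure the spread between these libraries, which may be technical. In the R6/2 and NCAR tables the libraries fell into 2 types, seen after the data were examined. The ratio of Rps26 to Oaz1, taken as an index of type, was 5.05 to 24 in 22 libraries (high Rps26) and 0.394 to 2.39 in the other 74 (low Rps26). All 48 Q175 and WT libraries and the 8 input libraries of the 1-month groups were of the low Rps26 type. High Rps26 libraries made up 9 of 16 IP and 11 of 16 input libraries at 2 and 3 months, and 2 of 8 IP libraries at 1 month. The labels name no such split, and what sets the types apart was not tested. In the IP, the 20 astrocyte markers (among them Slc1a2, a glutamate transporter) had a median log2 IP over input of 2.14 to 3.20 over the 12 groups, with all 20 called (limma adjusted p under 0.05) in each. The 12 microglia markers had medians of -5.18 to -4.33. Markers of other cell types were not all depleted in IP. Ependymal and choroid plexus markers had medians of 1.25 to 2.45, with 4 or 5 called higher in each group. Oligodendrocyte markers had medians of 0.60 to 0.82 in Q175 and WT mice at 6 and 12 months and 0.69 in NCAR mice at 3 months, and of -1.05 to -0.02 in the other 7 groups. Medium spiny neuron markers had medians of -1.51 to -0.82. The 10 pan-neuronal markers had medians of -0.21 to 0.32, with 2 to 6 called higher and 1 to 5 called lower in each group. Neuronal markers as a whole were thus not depleted in IP.

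Rpl22 was higher in IP than in input in all 12 groups, with no overlap between IP and input libraries in any of them. The share of all genes without such overlap was not counted, here or in the comparisons below. The log2 IP over input ran between 1.32 and 3.24 with a mean of 2.20, and limma adjusted p-values ran between 6.91e-08 and 0.000462. The highest values came from the 1-month mice. In R6/2 mice at 1 month, Rpl22 stood at 2405, 2239, 2286 and 4861 CPM (reads of the gene scaled to library size) in IP, against 238, 241, 422 and 319 CPM in input, a log2 IP over input of 3.24 ± 0.26 (SE). In NCAR mice at 1 month it stood at 4869, 3979, 2279 and 1279.5 CPM in IP, against 513, 429.6, 254 and 219 CPM in input (3.04 ± 0.42). Here 1 R6/2 library lay at about the level of the highest NCAR library, and the NCAR libraries were widely spread. The lowest log2 IP over input came from the oldest mutants, at 1.32 ± 0.24 in Q175 mice at 12 months and 1.33 ± 0.19 in R6/2 mice at 3 months.

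**Figure D1:**
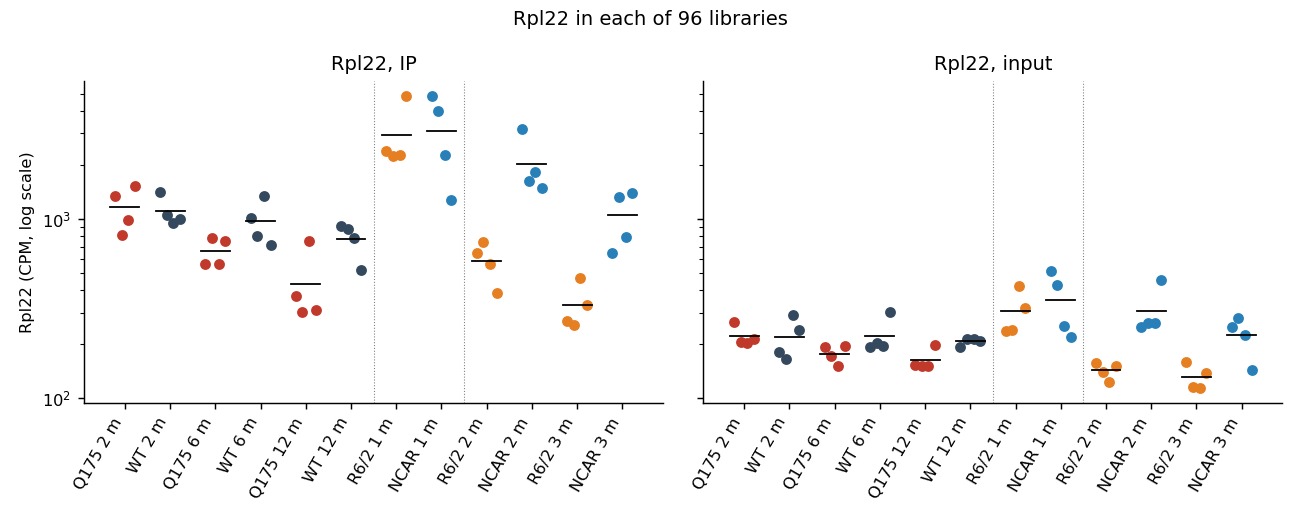
Rpl22 in each library, in CPM on a log axis, with IP on the left and input on the right. Each point is 1 library, bars are means of 4, and dotted lines part the 3 separately normalized tables. IP points reach 4869 CPM at 1 month and 256 CPM in R6/2 mice at 3 months, and input points lie between 114 and 513 CPM.

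The same rule (adjusted p under 0.05 over all genes tested) called most genes between IP and input. It called 78.4%, 75.6% and 74.3% of genes in Q175 mice at 2, 6 and 12 months, and 79.6%, 76.9% and 77% in WT mice at those ages. In R6/2 mice at 1, 2 and 3 months it called 70.4%, 58.3% and 55%, and in NCAR mice 71.7%, 55.8% and 56.7%. A call of Rpl22 is therefore near the background, and its direction and rank carry the description. Among genes tested in NCAR mice at 2 months Rpl22 was the 148th highest in log2 IP over input, and in Q175 mice at 12 months the 1389th highest. With library type as a covariate, the 6 R6/2 and NCAR values for Rpl22 ran between 1.40 and 3.35, and all 6 were called.

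The other ribosomal protein genes lay on the opposite side. Of 78 such genes, 46 of the large and 32 of the small subunit, the median log2 IP over input was between -1.58 and -1.22 in the 12 groups, beside medians over all genes of -0.04 to 0. Between 59 and 78 of the 78 were called in each group. The mean of Rpl22 over the 12 groups (2.20) was above that of all 78. Rpl26, a large-subunit protein gene, came next with a mean of 0.12, but ran between -0.67 and 1.99 by group and was called in WT mice at 2 months alone (-0.67 ± 0.24, adjusted p = 0.0228). Rpl15 and Rpl18, also of the large subunit, followed at -0.36 and -0.42. At the other end stood Rplp1 of the acidic ribosomal stalk (-2.29), and Rps12 (-2.22) and Rps21 (-2.19) of the small subunit.

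**Figure D2:**
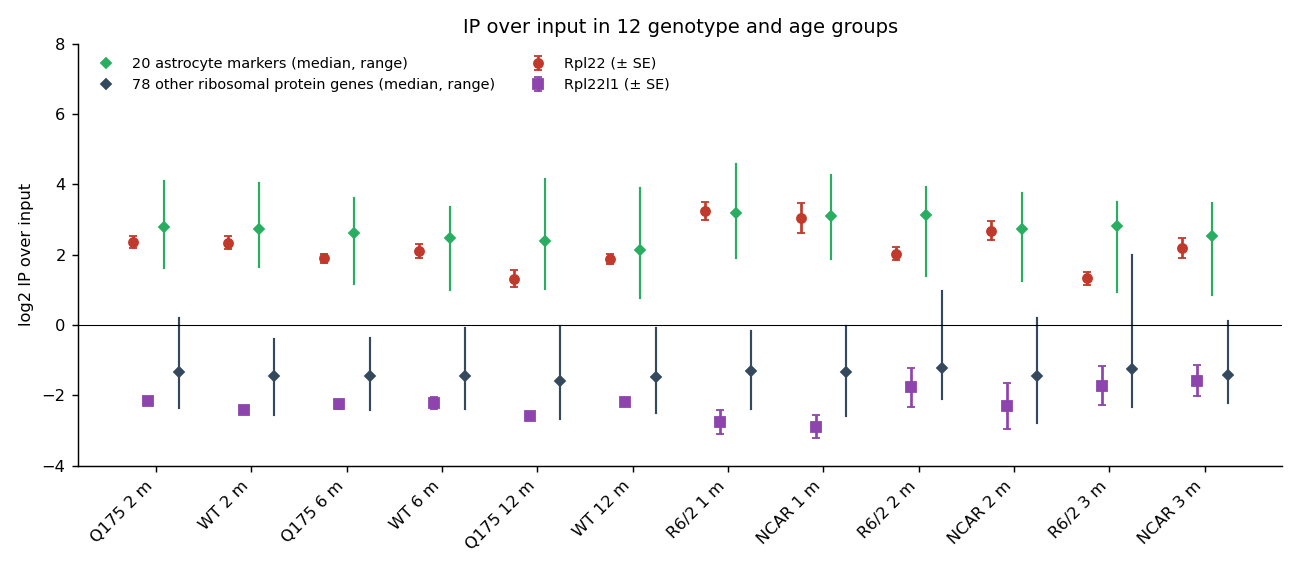
Log2 IP over input in the 12 genotype and age groups, with limma SE bars for Rpl22 and Rpl22l1, and the median (diamond) with lowest and highest gene (line) for 20 astrocyte markers and 78 other ribosomal protein genes. Rpl22 lies between 1.32 and 3.24, above 0 in every group as the astrocyte medians are, and Rpl22l1 between -2.89 and -1.58, below 0 as the ribosomal protein medians are.

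The level of Rpl22 in IP had an order within each table. In the Q175 and WT table the means were 1166 ± 326 CPM in Q175 at 2 months, 1105 ± 211 in WT at 2 months, 967 ± 280.2 in WT at 6 months, 774 ± 179 in WT at 12 months, 665 ± 122 in Q175 at 6 months and 434 ± 213 in Q175 at 12 months (SD, n = 4). Every pair of neighbours in that order overlapped. In the table of 2 and 3 months, NCAR at 2 months (2029.6 ± 777 CPM) lay above NCAR at 3 months (1044 ± 379) with no overlap, followed by R6/2 at 2 months (584 ± 153) and R6/2 at 3 months (330 ± 95.4), whose libraries overlapped with the group next to them. The 1-month groups averaged 2948 ± 1277 CPM in R6/2 and 3102 ± 1622 CPM in NCAR. They were normalized in a table of their own, so that age and table cannot be told apart for them. No test between ages was run. In input the group means of Rpl22 covered a narrower range, 131 to 354 CPM, and all neighbours within a table overlapped.

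Between genotypes, Rpl22 fell in R6/2 mice at 2 and 3 months in IP and in input. At 2 months IP held 648, 745, 557 and 385 CPM of Rpl22 in R6/2 mice, against 3177, 1632, 1821 and 1488 CPM in NCAR mice. No R6/2 library reached the lowest NCAR library. The log2 fold change was -1.76 ± 0.27 (adjusted p = 0.00569), the 110th lowest of 15022 genes, where 5.61% of genes were called. At 3 months IP held 270.3, 256, 465 and 329 CPM in R6/2 mice, against 648, 1333, 795 and 1403 CPM in NCAR mice, again with no overlap (-1.62 ± 0.28, adjusted p = 0.00585, 14.2% of genes called). In bulk libraries such as these, fewer cells of a type and less RNA per cell cannot be told apart, nor can native and tagged copies.

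Input moved the same way. At 2 months Rpl22 stood at 157, 140.1, 123 and 151 CPM in R6/2 input, against 249.7, 262, 263 and 454 CPM in NCAR input. The groups did not overlap, and the change was -1.06 ± 0.18 on the log2 scale (adjusted p = 0.00383), where 16% of genes were called. At 3 months R6/2 input held 159, 115, 114 and 138 CPM and NCAR input 249, 279.9, 224 and 143 CPM. The lowest NCAR library lay within the R6/2 range, and the change was -0.76 ± 0.19 (adjusted p = 0.0141), where 28.1% of genes were called. At 1 month neither difference passed the test, at 0.04 ± 0.41 in IP (adjusted p = 0.983, 0.0794% of genes called) and -0.16 ± 0.26 in input (adjusted p = 0.725, 12.3% of genes called).

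The lower Rpl22 in R6/2 IP was also present within libraries of 1 type. Among low Rps26 IP libraries at 2 months, R6/2 held 745, 557 and 385 CPM, against 1632 CPM in NCAR. The only high Rps26 R6/2 library held 648 CPM, against 3177, 1821 and 1488 CPM in NCAR. At 3 months R6/2 IP held 270.3 and 256 CPM in low Rps26 libraries, against 795 CPM in NCAR, and 465 and 329 CPM in high Rps26 libraries, against 648, 1333 and 1403 CPM in NCAR. None of these IP sets overlapped, but most held a single library on 1 side. In input at 2 months neither type overlapped. High Rps26 input libraries at 3 months did overlap, at 159, 115 and 114 CPM in R6/2 and 249, 279.9, 224 and 143 CPM in NCAR. With library type as a covariate the log2 fold changes were -1.62 and -1.49 in IP at 2 and 3 months (adjusted p = 0.0241 and 0.00571). In input they were -1.06 and -0.79 (adjusted p = 0.00056 and 0.0147). The covariate fits called 766 and 3107 genes in IP at 2 and 3 months, and 5022 and 5165 in input. Without the covariate 842 and 2136 genes were called in IP, and 2455 and 4318 in input.

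Markers of some other cell types fell in the same comparisons. Medium spiny neuron markers, of which 11 were tested, had an IP median of -1.44 at 2 months with 9 called lower and of -1.48 at 3 months with 10 called lower. In input their medians were -1.43 and -1.58, with 10 called lower at each age. Pan-neuronal markers had IP medians of -0.45 and -0.22 at 2 and 3 months, with 4 and 1 of 10 called lower. Their input medians were -0.24 and -0.30, with 3 called lower and 1 higher at each age. Oligodendrocyte markers had IP medians of -1.04 and -1.79 at 2 and 3 months with 2 and 7 of 10 called lower, and input medians of -0.22 and -0.32 with 4 and 5 called lower. Microglia markers had an input median of -1.03 at 3 months, with 11 of 12 called lower. Their IP medians were -0.28 and -0.74 at 2 and 3 months, with 0 and 1 called lower. Endothelial and mural markers had IP medians of 0.15 and 0.10, with 0 called at either age. Ependymal and choroid plexus markers had IP medians of 0.42 with 0 called at 2 months and -0.81 with 2 called lower at 3 months. The part of these cell types in the lower Rpl22 was not tested.

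Other ribosomal protein genes and astrocyte markers stood beside this change as follows. In R6/2 IP against NCAR IP, the 78 ribosomal protein genes had a median of 0.27 at 2 months and 0.25 at 3 months. By limma 0 of 78 were called at either age, with 8 and 4 under an unadjusted p of 0.05 and 0 called with voom weights. The 20 astrocyte markers had an IP median of -0.10 at 2 months, with 0 called (4 under an unadjusted p of 0.05, 0 called with voom weights). At 3 months in IP their median was -0.24 with 5 called lower, where 14.2% of all genes were called. In input the astrocyte median was -0.32 at 2 months, with 6 called lower and 1 higher, where 16% of all genes were called. At 3 months it was -0.51 in input, with 12 called lower and 1 higher, where 28.1% of all genes were called. The part of the astrocyte markers in the lower Rpl22 was not tested. Slc1a2 itself changed by -0.39 (adjusted p = 0.382) in IP and -0.55 (adjusted p = 0.0213) in input at 2 months.

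In Q175 mice Rpl22 passed the test in input at 12 months alone. At 2 months IP held 1346, 812, 984 and 1524 CPM in Q175 mice and 1416, 1052, 954 and 999 CPM in WT mice, which overlapped fully (0.07 ± 0.19, adjusted p = 0.999, 0.0199% of genes called). At 6 months IP held 561, 787, 559 and 753 CPM in Q175 mice and 1015, 799, 1342 and 713 CPM in WT mice. The 6-month libraries overlapped, and -0.50 ± 0.19 did not pass the test (adjusted p = 0.239, 3.8% of genes called). At 12 months IP held 372, 302, 749.5 and 312 CPM in Q175 mice, against 918, 875, 784 and 518 CPM in WT mice. The third Q175 library lay within the WT range, and the difference of -0.90 ± 0.27 missed the threshold (adjusted p = 0.0822, 6.97% of genes called). Without that library it was -1.19 and passed (adjusted p = 0.00605), the only 1 of 8 omissions in which it did (adjusted p up to 0.197). It also passed with all Q175 and WT libraries in 1 fit (-0.91, adjusted p = 0.00297). That fit called 2386 genes, against 1059 in the main fit.

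In input, Rpl22 fell in Q175 mice at 12 months, to 154, 150.3, 151 and 199 CPM, against 194, 213, 213 and 208 CPM in WT mice. In Q175 mice 3 libraries lay below all WT libraries and the fourth within their range, and the log2 fold change was -0.34 ± 0.09 (adjusted p = 0.0157, 18.4% of genes called). The call was lost when the values were scaled as deposited, by library size alone (-0.24, adjusted p = 0.05). It was also lost with all libraries of the table in 1 fit (-0.35, adjusted p = 0.301) and without the second Q175 library (adjusted p = 0.0519). The astrocyte markers had a median of -0.15 in that comparison, with 5 of 20 lower and 1 higher. Medium spiny neuron markers had a median of -0.95 with 10 of 11 called lower, and in IP at 12 months of -1.24, also with 10 of 11 called lower. The part of either in the Rpl22 values was not tested. At 2 and 6 months input gave 0.04 ± 0.15 (adjusted p = 1, 0.00652% of genes called) and -0.29 ± 0.14 (adjusted p = 0.213, 13.9% of genes called). At 2 months Q175 input held 267, 205, 202 and 213 CPM and WT input 182, 165, 292 and 239 CPM, and at 6 months Q175 input held 193, 171, 150.3 and 195 CPM and WT input 192, 202, 196 and 302 CPM. Both ages overlapped, with a single WT library set apart at the top at 6 months.

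**Figure D3:**
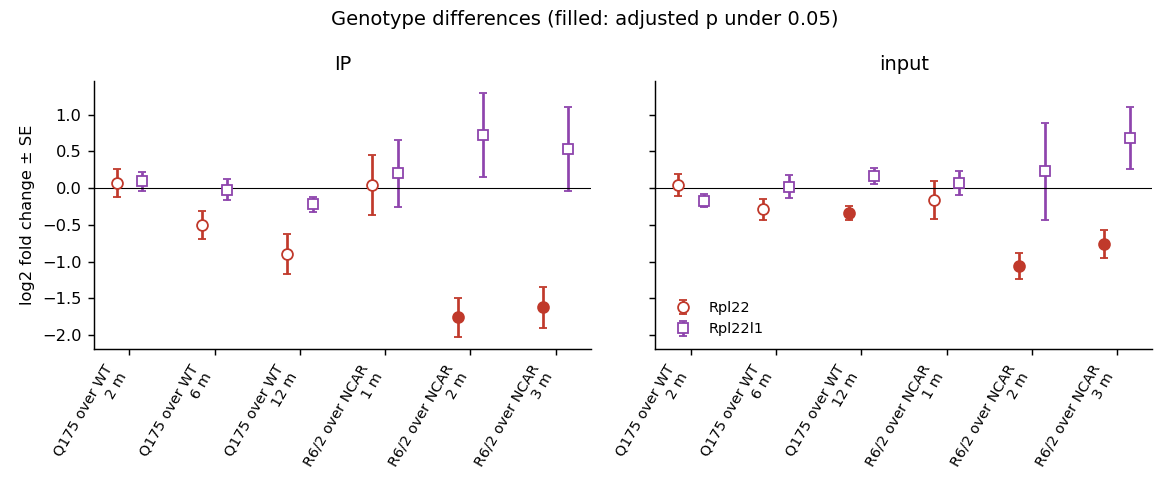
Log2 fold change of Rpl22 (circles) and Rpl22l1 (squares) between mutant and control mice by age, in IP (left) and input (right), with limma SE. Filled symbols passed an adjusted p of 0.05: Rpl22 at -1.76 and -1.62 in R6/2 IP, and at -0.34, -1.06 and -0.76 in input, and none of the Rpl22l1 values.

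Whether the genotype difference itself differed between IP and input was tested at each age. For Rpl22 the interaction ran between -0.83 and 0.19, and 0 of 6 passed the limma test, with 1 under an unadjusted p of 0.05 and 0 called with voom weights. The lowest value was in R6/2 mice at 3 months (-0.83 ± 0.37, unadjusted p = 0.0375, adjusted p = 0.59), followed by R6/2 at 2 months (-0.70 ± 0.35, adjusted p = 0.591) and Q175 at 12 months (-0.56 ± 0.32, adjusted p = 0.883). For Rpl22l1 it ran between -0.38 and 0.49, and likewise 0 of 6 passed, with 1 under an unadjusted p of 0.05 and 0 called with voom weights. Few genes of any kind passed this test. The share was 0.00643%, 0.0895% and 0.121% in Q175 mice at 2, 6 and 12 months, and 0%, 0.0577% and 0.154% in R6/2 mice at 1, 2 and 3 months.

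Rpl22l1 was lower in IP than in input in all 12 groups, and all 12 values were called, between -2.89 and -1.58 on the log2 scale with a mean of -2.24. That is the side on which the ribosomal protein genes lay, and 1 of the 78 had a lower mean. With 55% to 79.6% of all genes called between IP and input, a call of Rpl22l1 is also near the background. By log2 IP over input Rpl22l1 was the 322nd lowest gene in R6/2 mice at 1 month. In NCAR mice at 3 months it was the 1209th lowest. In the Q175 and WT table the libraries held 3.59 to 5.46 CPM of Rpl22l1 in IP and 16.5 to 32.3 CPM in input, with no overlap. At 12 months, for example, Q175 IP held 4.54, 4.27, 4.23 and 4.4 CPM, against 25.6, 24.7, 24 and 32.3 CPM in Q175 input (-2.59 ± 0.10, adjusted p = 8e-09). The 4 IP values there were nearly alike, and the input values were further apart, with the fourth library highest.

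Over the Q175 and WT table the log2 IP over input of Rpl22l1 was -2.17, -2.26 and -2.59 in Q175 mice at 2, 6 and 12 months and -2.43, -2.22 and -2.20 in WT mice, each with an SE of 0.10 to 0.16. At 1 month it was -2.76 ± 0.35 in R6/2 mice (adjusted p = 3.7e-05) and -2.89 ± 0.32 in NCAR mice (adjusted p = 2.31e-05).

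In the R6/2 and NCAR tables Rpl22l1 split with library type. At 2 months R6/2 input held 3.81, 15.9, 5.08 and 19.5 CPM and NCAR input 3.41, 14.3, 4.08 and 16.2 CPM. The low values were those of the high Rps26 libraries in each case. Over 2 and 3 months, high Rps26 input libraries held 2.96 to 5.11 CPM and low Rps26 input libraries 14.3 to 19.5 CPM. In IP the same split gave 0.719 to 1.58 CPM and 2.82 to 4.74 CPM, and at 1 month 1.28 and 1.33 CPM in the 2 high Rps26 IP libraries and 3.17 to 4.97 CPM in the others. IP and input libraries, of mixed types, overlapped in R6/2 at 2 months and in NCAR at 2 and 3 months. IP over input at 2 and 3 months was -1.77 ± 0.56 and -1.73 ± 0.56 in R6/2 mice (adjusted p = 0.0209 and 0.0232), and -2.30 ± 0.66 and -1.58 ± 0.43 in NCAR mice (adjusted p = 0.0138 and 0.00996). With library type as a covariate the 6 R6/2 and NCAR values ran between -2.55 and -1.77, with adjusted p-values between 6.87e-07 and 0.000246. The call for R6/2 at 2 months was lost without IP library 1, input library 2 or input library 4 (adjusted p up to 0.0605), and at 3 months without IP library 3 or 4 (adjusted p up to 0.0628).

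**Figure D4:**
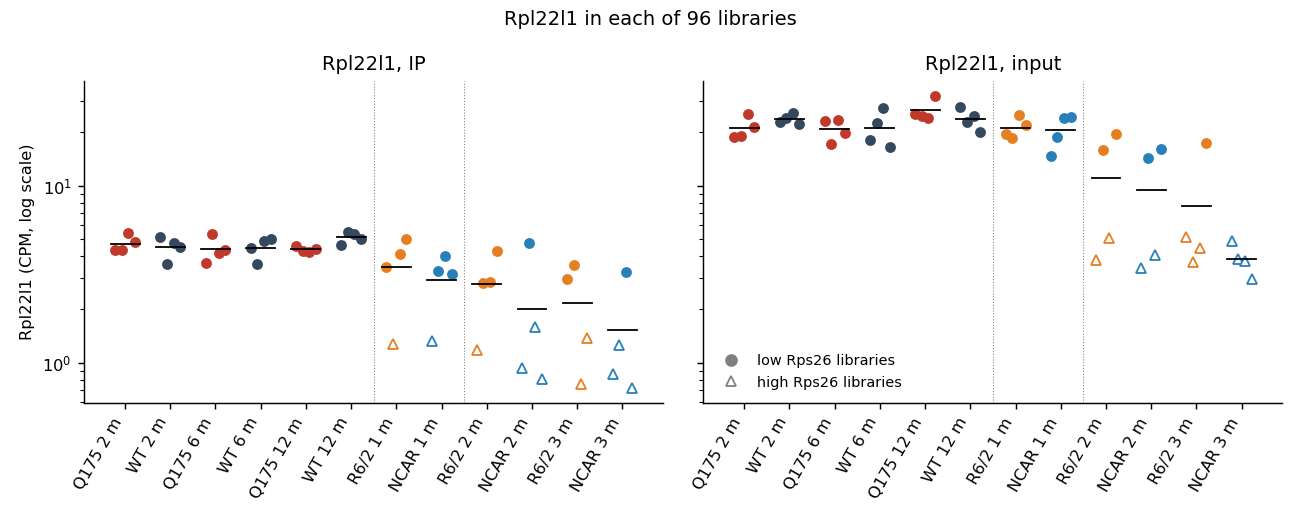
Rpl22l1 in each library, in CPM on a log axis, with IP on the left and input on the right. Open triangles are high Rps26 libraries and filled circles low Rps26 libraries, bars are means of 4, and dotted lines part the 3 tables. At 2 and 3 months the open input points lie at 2.96 to 5.11 CPM and the filled ones at 14.3 to 19.5 CPM.

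No genotype difference of Rpl22l1 passed the test. In IP the log2 fold changes ran between -0.22 and 0.72, with 0 of 6 called by limma, 1 under an unadjusted p of 0.05 and 0 called with voom weights. In input they ran between -0.17 and 0.68, with 0 of 6 called, 0 under an unadjusted p of 0.05 and 0 called with voom weights. The value with the lowest unadjusted p was in Q175 IP at 12 months, where Q175 mice held 4.54, 4.27, 4.23 and 4.4 CPM, against 4.64, 5.46, 5.33 and 5.02 CPM in WT mice. These groups did not overlap, and -0.22 ± 0.10 had an adjusted p of 0.214. At 2 months R6/2 IP held 1.18, 2.82, 2.85 and 4.30 CPM and NCAR IP 0.936, 4.74, 1.58 and 0.81 CPM (0.72 ± 0.57, adjusted p = 0.449). Of these, the R6/2 group had 1 high Rps26 library and the NCAR group 3, and with library type as a covariate the difference was -0.19 (adjusted p = 0.796). At 3 months R6/2 IP held 2.97, 3.55, 0.753 and 1.37 CPM and NCAR IP 0.86, 1.26, 3.24 and 0.719 CPM (0.53 ± 0.57, adjusted p = 0.552). In input at 3 months R6/2 mice held 5.11, 3.7, 4.45 and 17.4 CPM and NCAR mice 4.88, 3.87, 3.74 and 2.96 CPM (0.68 ± 0.42, adjusted p = 0.245). With library type as a covariate the 3-month differences were 0.10 in IP and 0.18 in input (adjusted p = 0.814 and 0.548), and without 1 library at a time they ran between 0.22 and 0.97 in IP and 0.18 and 0.94 in input. The groups overlapped in both, and the highest R6/2 input library was the only low Rps26 one among those 8. At 1 month R6/2 IP held 3.48, 1.28, 4.11 and 4.97 CPM and NCAR IP 1.33, 3.29, 3.99 and 3.17 CPM, again overlapping (0.20 ± 0.46, adjusted p = 0.914).

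The row of the copy Gm15421 held nearly the same level as Rpl22l1. The ratio of Rpl22l1 to Gm15421 had a median of 0.947 in IP (0.58 to 2.33 over 48 libraries) and 0.964 in input (0.667 to 1.08). Their log2 levels had a Pearson r of 0.72, 0.86 and 0.97 over the 24, 16 and 8 IP libraries of the 3 tables, and of 0.87, 0.98 and 0.96 over the input libraries. These are descriptions of a pair that shares sequence and library, and the sets of 16 libraries and of 8 IP libraries hold both library types. With the rows summed, IP over input ran between -2.73 and -1.57 and was called in all 12 groups. The summed difference in Q175 IP at 12 months was -0.36 and passed the test (adjusted p = 0.0366), unlike that of Rpl22l1 alone. It was the only 1 of 12 summed genotype differences to pass, in a setting chosen after seeing the data. That fit called 1059 genes.

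Per kilobase of annotated exon (2911 bases in Rpl22 and 1989 in Rpl22l1, all transcripts joined), Rpl22 held more reads than Rpl22l1 in every group. Its group means were 113 to 1066 CPM per kilobase in IP and 45 to 122 in input. Those of Rpl22l1 were 0.764 to 2.57 in IP and 1.94 to 13.4 in input. Both lowest values came from NCAR mice at 3 months, where all 4 input libraries and all IP libraries but 1 were high Rps26. The ratio between them ran from 4.2 in Q175 input at 12 months to 718 in NCAR IP at 1 month. It depends on the exon length taken and on the library types in a group, and leaves out the row of Gm15421. Reads of a tagged Rpl22 copy, if present, would be part of it.

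Of the other paralogs of ribosomal protein genes that were looked up, Rps27l, a small-subunit paralog known as a p53 target, was higher in IP in all 12 groups (0.46 to 1.18). Rpl36al was lower in IP in all 12 (-0.59 to -0.30). Rpl7l1 was called in Q175 mice at 12 months alone (-0.29), and Rps4l passed in Q175 and WT mice at 6 and 12 months (0.35 to 0.44). Rpl3l was tested in NCAR mice at 1 and 2 months and called at 2 months (-1.57). Rpl10l and Rpl39l passed the filter nowhere. With 55% to 79.6% of all genes called between IP and input, calls of these paralogs there are also near the background. Between genotypes Rpl7l1 rose in Q175 input at 6 months (0.30, adjusted p = 0.00811), in R6/2 input at 1 month (0.27, adjusted p = 0.0389) and 3 months (0.57, adjusted p = 0.0102), and in R6/2 IP at 3 months (0.57, adjusted p = 0.0251). Rpl36al rose in R6/2 input at 1 month (0.28, adjusted p = 0.0493). These are 5 calls over 12 comparisons with 4 or 5 paralogs tested in each, beside the 13.9%, 12.3%, 28.1% and 14.2% of all genes called in the 4 comparisons that hold them.

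A further list held genes tied to RPL22 or RPL22L1 in other systems. Smad2, a signal carrier of the TGF-beta pathway, was higher in IP in all 12 groups (0.41 to 0.73), and its splicing is controlled by RPL22 in zebrafish and mouse. Smad1, linked to the paralog in zebrafish blood formation, was called higher in 9 groups (0.15 to 0.76). Mdm4 (-1.36 to -0.63), whose splicing depends on RPL22 in human cancer cells, and Lin28b (-1.82 to -1.17), which is induced on loss of Rpl22 in mouse T cells, were lower in IP in all 12. Trp53, which becomes active in mouse T cells without Rpl22, was called higher in 8 groups (0.35 to 0.73). With 55% to 79.6% of all genes called between IP and input, such numbers of calls are near the background. Between genotypes the list of 5 had 1 call in R6/2 input at 1 month and 2 at 3 months, where 12.3% and 28.1% of all genes were called. Lin28b rose in R6/2 input at 1 month (0.31, adjusted p = 0.0483) and 3 months (0.43, adjusted p = 0.0424), and Smad2 in R6/2 input at 3 months (0.32, adjusted p = 0.0298).

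The link of each gene to astrocyte content was examined across the libraries of a table, with the astrocyte score taken as the mean log2 CPM of the 20 markers. In all, 41 relations were computed, which also included a microglia and vascular score and the pair with each other. None passed an adjusted p of 0.05 by Pearson's r (6 under an unadjusted p of 0.05), and 1 passed by Spearman's rho. That relation was Rpl22 with the astrocyte score in the 24 Q175 and WT IP libraries, with r = 0.61 (permutation p = 0.00152, adjusted p = 0.0623) and rho = 0.67 (permutation p = 0.0006, adjusted p = 0.0246). Without the 2 libraries farthest from the median score r was 0.61. Scaled as deposited it was 0.49, and within groups, as deviations from the group mean, 0.39 (permutation p = 0.174). The same libraries gave r = 0.01 with the microglia and vascular score. In R6/2 and NCAR input at 2 and 3 months Rpl22 had r = 0.58 and rho = 0.66 with that score. There the permutation p was 0.0174 and 0.00694 (adjusted p = 0.178 and 0.142). All R6/2 libraries but 1 (4.89, at 2 months) lay below all NCAR libraries (4.85 or more) in that score. The genotype difference therefore enters this r, and within groups r was 0.27 (permutation p = 0.524). In IP at those ages r was 0.29. In IP at 1 month r within groups was 0.86 (permutation p = 0.0122, adjusted p = 0.264).

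In the 16 R6/2 and NCAR IP libraries of 2 and 3 months Rpl22 had r = 0.62 and rho = 0.57 with the astrocyte score (permutation p = 0.00994 and 0.0235, adjusted p = 0.136 and 0.235). Without the 2 farthest libraries r was 0.46, and within groups it was -0.20. Within library types r was 0.56 in 9 high Rps26 and 0.61 in 7 low Rps26 libraries and rho 0.72 and 0.36 (exact p for r = 0.118 and 0.145, for rho = 0.0369 and 0.444). Without the 2 farthest of each type r was 0.35 and -0.71, so the value in low Rps26 libraries rests on those 2. In input of those ages all R6/2 libraries lay below all NCAR libraries in score and, but for 1 NCAR library, in Rpl22. They formed separate clusters, so that no r over both is given. Within groups r was -0.61 (permutation p = 0.0322, adjusted p = 0.264), opposite in sign to the order of the clusters. At 1 month all R6/2 libraries again lay below all NCAR libraries in score, and within groups r was 0.07 in IP and -0.16 in input (n = 8 each, permutation p = 0.907 and 0.706). In Q175 and WT input r was 0.40 and rho 0.43 (permutation p = 0.0552 and 0.0401, adjusted p = 0.323 and 0.235), and without the 2 farthest libraries r was 0.32. Within groups it was 0.09, and scaled as deposited -0.01. Rpl22l1 had r = -0.08 in IP and -0.06 in input of the Q175 and WT table, and rho = -0.11 and -0.13 (permutation p for r = 0.726 and 0.783, for rho = 0.621 and 0.558). In the 11 high Rps26 input libraries of 2 and 3 months its r within groups was -0.74 (permutation p = 0.0276, adjusted p = 0.264).

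**Figure D5:**
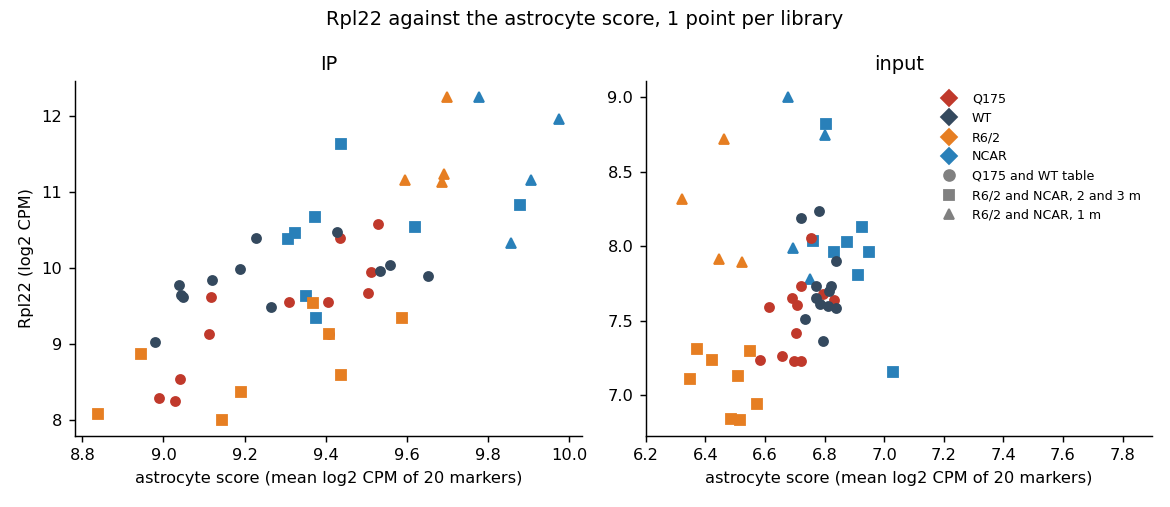
Rpl22 in log2 CPM against the astrocyte score, 1 point per library, in IP (left) and input (right), with colours for genotype and shapes for the 3 tables. In the Q175 and WT IP libraries (circles) r was 0.61, and in input at 2 and 3 months (squares) the R6/2 points lie left of all NCAR points.

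Group by group, the astrocyte markers stood beside Rpl22 as follows. In R6/2 mice the astrocyte median of log2 IP over input was 3.20, 3.13 and 2.82 at 1, 2 and 3 months, beside 3.24, 2.03 and 1.33 for Rpl22. In NCAR mice it was 3.09, 2.74 and 2.52, beside 3.04, 2.69 and 2.20 for Rpl22. In Q175 mice at 2, 6 and 12 months it was 2.79, 2.63 and 2.39, beside 2.36, 1.90 and 1.32, and in WT mice 2.74, 2.47 and 2.14, beside 2.34, 2.10 and 1.88. The difference between a list and a gene was not tested.

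By the mean Pearson r over the 3 tables, the genes most like Rpl22 in IP were Gclm (0.85), which codes for the modifier subunit of the first enzyme of glutathione synthesis, Lyrm4 (0.81) of iron-sulphur cluster assembly, Ddit4l (0.78), the kinase gene Dclk1 (0.76) and Cep128 (0.75), of 10867 genes compared. Slc1a2 had r = 0.71 and 0.72 in the tables of 24 and 16 IP libraries and -0.19 in that of 8, Slc1a3 0.60, 0.41 and 0.60, and Aldh1l1 0.40, 0.25 and 0. In input Rims1 (0.75), Sesn3 (0.71), Pwwp2a (0.70) and Dcc (0.69) were among the closest. For Rpl22l1 the nearest were Rps25 (0.82), Ikbkg (0.80), Eef1b2 (0.79), Chchd2 (0.79) and Ttpal (0.77) in IP, and Rps21 (0.86), Ndufb6 (0.86), Vbp1 (0.82), Mir682 (0.82) and Myeov2 (0.81) in input. Libraries in these tables differ in genotype, age and library type, all of which enter such an r. Rpl22 and Rpl22l1 had r = 0.21 with each other in IP and -0.28 in input of the Q175 and WT table (permutation p = 0.326 and 0.189).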

How the data were processed

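Per the file headers and values, the authors deposited log2 CPM per gene and library in 3 tables of 48, 32 and 16 libraries. Values of the 48 Q175 and WT libraries were scaled by library size alone, with factors of 1.0. Those of the R6/2 and NCAR libraries carried scaling factors of 0.814 to 1.214. Per the submitters' processing notes, STAR, HTSeq, edgeR, limma and mm10 were used, with versions not given in the sources used here. Whole reads were recovered from the low values (100% whole within 0.01 read), with the depth given in the results. Reads were scaled by TMM (trims of 30% and 5%) and turned into log2 CPM with 0.25 as prior count. A gene stayed in where it reached 10 reads, at the median library size, in as many libraries as the smallest group holds, and 15 reads in all. limma 3.58.1 with an intensity trend (R 4.3.3) was fitted to all such genes for IP over input, genotype in IP and in input, and genotype by RNA type, with Benjamini-Hochberg adjustment and a threshold of 0.05. The fit was tested on simulated data. Levels per library use 1 scaling over a table, so they differ slightly from a fit's means, and tests and orders stay within a table. Correlations used 100000 permutations, or all orders under 10 libraries except within groups, two-sided. Likeness used genes in all tables above a mean of 5 CPM, and the closest 5 were named, except 1 that is not reported here. From the ribosomal protein list, the 3 genes with the highest and the 3 with the lowest mean were named. Other lists were paralogs, genes linked to RPL22, and cell type markers. Libraries were compared by a chi-square of their counts in 144 pairs within groups, and none were duplicates (6.21 or more per gene). Members and lists were chosen with earlier results of these data known. Alternatives were the deposited scaling, a prior count of 2, no filter, voom weights, all libraries of a table in 1 fit, and leaving out each library.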

Additional observations from a re-analysis of the deposited data

Results flagged for a closer look

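Of 48 sets of 4 libraries tested, 4 had 1 library that stood far from the other 3, each of them for Rpl22 and each on the high side. Chance gives about 1 in 20 sets. In R6/2 IP at 1 month 1 library held 4861 CPM of Rpl22, and the others 2239 to 2405 CPM. In Q175 input at 12 months 1 library held 199 CPM and the others 150.3 to 154 CPM. In WT input at 6 months 1 library held 302 CPM and the others 192 to 202 CPM. In NCAR input at 2 months 1 library held 454 CPM and the others 249.7 to 263 CPM.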

How the results depend on the processing

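No paired analysis was possible because no label pairs libraries across groups or ties an IP library to an input library. Rpl22 IP over input and the R6/2 calls of Rpl22 at 2 and 3 months held under every alternative run. No call changed with a prior count of 2, no filter or voom weights. For the R6/2 and NCAR tables, the deposited scaling is a weak check, because its factors nearly equal those of TMM over a table. In R6/2 input at 2 months, library 1 had factors of 1.131 (deposited) and 1.1311 (TMM). In NCAR IP at 2 months, library 3 had 0.814 (deposited) and 0.8136 (TMM). Library type as a covariate, the summed copy and correlations within a library type were chosen after seeing the data. Depth limits Rpl22l1, with as few as 29 reads in an IP library. The causes of the changes below were not tested.

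Rpl22 between Q175 and WT at 12 months passed in IP with all libraries in 1 fit (-0.91), and was lost in input there (-0.35) and with the deposited scaling (-0.24). Rpl22l1 gave -0.36 in IP at 12 months with its copy summed, now past the threshold, the only 1 of 12 summed genotype differences to pass. Rpl22l1 between Q175 and WT at 6 months changed sign in IP with the deposited scaling (0.02) and in input with the copy summed (-0.01). With library type as a covariate Rpl22l1 at 2 months changed sign in R6/2 IP (-0.19) and in the interaction (-0.47), and with the copy summed in the 3-month interaction (0.12).

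Without 1 library at a time, Q175 against WT ran as follows. At 2 months Rpl22 ran between -0.08 and 0.23 in IP, -0.08 and 0.19 in input and -0.13 and 0.17 in the interaction, and Rpl22l1 between -0.01 and 0.16 in IP. At 6 months Rpl22l1 ran between -0.12 and 0.06 in IP, -0.09 and 0.14 in input and -0.16 and 0.07 in the interaction. At 12 months Rpl22 ran between -1.19 and -0.77 in IP and -0.43 and -0.30 in input. R6/2 against NCAR at 1 month gave Rpl22 between -0.33 and 0.32 in IP, -0.36 and 0.05 in input and -0.18 and 0.46 in the interaction. Rpl22l1 there ran between -0.14 and 0.62, -0.08 and 0.17, and -0.23 and 0.53. Rpl22l1 ran between -0.16 and 0.63 in R6/2 against NCAR input at 2 months, and -0.43 and 0.35 in the 3-month interaction. Its R6/2 IP over input ran between -2.17 and -1.37 at 2 months and -2.05 and -1.22 at 3 months.

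Correlations that changed sign, none past the threshold, were these. In Q175 and WT IP, Rpl22 with the microglia and vascular score gave -0.12 (deposited scaling) and -0.09 (without the 2 farthest libraries). Rpl22l1 gave 0.03 with the astrocyte score within groups and 0.03 without the 2 farthest, and 0.07 within groups and 0.09 (deposited scaling) with the microglia and vascular score. In Q175 and WT input, Rpl22 gave -0.01 with the astrocyte score (deposited scaling) and 0.19 with the other score within groups, and Rpl22l1 0.18 (deposited scaling) and -0.07 (within groups). At 2 and 3 months Rpl22 within groups gave -0.20 and -0.03 in IP with the astrocyte and the other score, and -0.61 in input with the astrocyte score. Rpl22l1 gave -0.34 with the astrocyte score in high Rps26 IP libraries without the 2 farthest. With Rpl22 it gave 0.04 in those libraries, -0.88 within groups in low Rps26 IP and 0.55 within groups in high Rps26 input. At 1 month Rpl22 with the astrocyte score gave -0.22 (without the 2 farthest) and -0.02 (low Rps26 libraries) in IP, and -0.16 (within groups) and -0.07 (without the 2 farthest) in input. Rpl22l1 within groups gave 0.09 and 0.53 in low Rps26 IP with the astrocyte and the other score, and 0.03 in input with the astrocyte score. Without the 2 farthest input libraries it gave 0.07 and 0.55 with those scores and 0.38 with Rpl22.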
